A study of Mus musculus with 15 samples.

Results

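The cytosolic ribosomal protein genes were examined in microglia, the resident macrophages of the brain, sorted from young mice, from old mice and from old mice given PLX5622. Members were the lines of the deposited expression table whose symbol begins with Rpl or Rps and a digit, or with Rplp, or is Rpsa. Of 134 such symbols, 9 Rps6k kinases and 40 pseudogene symbols (those with -ps) were left out, by symbol and not by annotation. The remaining 85 members stood among 13834 genes. They comprised 46 proteins of the large subunit, 31 of the small subunit, 4 large-subunit paralogues (Rpl22l1, Rpl36al, Rpl7l1 and Rpl37rt), 3 small-subunit paralogues (Rps27l, Rps27rt and Rps4l) and Rps19bp1, which matches the naming pattern but encodes a protein that binds RPS19. GENCODE M21 annotates 2 of these, Rpl37rt and Rps4l, as transcribed processed pseudogenes and the other 83 members as protein-coding. The 77 proteins of the large and small subunits are called the core genes here. All 85 members passed the filter on low values.

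RNA was sequenced in 15 libraries of 4 groups, from brain microglia isolated by flow cytometry. The old mice were 18 months old: cells of high autofluorescence made up the AF-high group (n = 5) and cells of low autofluorescence the AF-low group (n = 3), both without treatment. The young group (n = 3) came from mice 3 months old without treatment, and the PLX5622 group (n = 4) from treated mice 18 months old. PLX5622 is an inhibitor of the CSF1 receptor that depletes microglia, and the series asks whether an age-related microglial state can be reversed. The sources used here give no strain, sex, dose, schedule, gate of the young and PLX5622 cells, or number of animals behind a library, so each p-value speaks only of how far these libraries spread.

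The ribosome builds every protein of the cell from a small subunit, which reads the message, and a large subunit, which joins amino acids. Each subunit combines ribosomal RNA with a single copy of most of its proteins, so the proteins are needed in matched amounts. Their messages typically begin with a C followed by a run of pyrimidines, the 5′ terminal oligopyrimidine (TOP) motif, through which mTOR complex 1 and the RNA-binding protein LARP1 set how strongly they are translated. Translation was not measured here. The table reports message abundance only.

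The sequence around the start site is shown for members on which the comparisons below turn or whose start carries the most typical pyrimidine run, with the searched motif in capitals. The 30-base windows are on the strand of the gene, from RefSeq on GRCm38.p6. The start site counts as position 1.
Rpl38, chr11:114668568-114668597, plus strand: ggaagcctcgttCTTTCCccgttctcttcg
Rps27, chr3:90213630-90213659, minus strand: ccgctttcgctcCTTTCCggcggtgacgac
Rps27rt, chr9:114982722-114982751, minus strand: acttatcccttgCTTTCCggcggtgacgac
Rpl15, chr14:18270965-18270994, minus strand: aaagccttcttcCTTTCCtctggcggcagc
Rps10, chr17:27635223-27635252, minus strand: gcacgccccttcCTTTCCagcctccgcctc
Rpl28, chr7:4792955-4792984, plus strand: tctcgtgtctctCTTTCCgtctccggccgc
The motif began at position 1 in Rpl38 and Rps27rt, at position 2 in Rps27, at 3 in Rpl28 and at 5 in Rpl15 and Rps10. In other members named below, whose windows are not shown, it began elsewhere: at -5 in Rpl35, 32 in Rpl31, -32 in Rpl22 and -41 in Rps19. A match in the counts below thus need not lie at the start of the message. Windows from 50 bases before to 50 bases after the start site were searched. RefSeq entries were found for 64 members, 57 of them core genes. A gene counted as a match if any of its start sites matched. CTTTCC stood on the gene's strand in 18 of the 57 core genes (31.6%), against 5.43% of all 27025 genes with an entry. On either strand it stood in 33.3% against 10.3%. CTCTTTC, which can overlap CTTTCC by 5 letters, stood on the gene's strand in 21.1% of the core genes against 1.62% of all these genes. On either strand it stood in 22.8% against 3.08%. CGGAAG, a core of ETS-factor sites, stood on either strand in 40.4% against 10.4%. A match describes letters in a window and nothing about binding or translation.

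The small-subunit protein RPS27 has close relatives in the genome, shown here because they bear on how its reads can be assigned. The coding sequences of Rps27 and Rps27rt were identical over 255 bases (0 mismatches), while Rps27l differed from Rps27 at 61 positions (76.08% identity). Rps27 is printed in lower case, and capitals in Rps27l mark the bases that differ from it.
Rps27: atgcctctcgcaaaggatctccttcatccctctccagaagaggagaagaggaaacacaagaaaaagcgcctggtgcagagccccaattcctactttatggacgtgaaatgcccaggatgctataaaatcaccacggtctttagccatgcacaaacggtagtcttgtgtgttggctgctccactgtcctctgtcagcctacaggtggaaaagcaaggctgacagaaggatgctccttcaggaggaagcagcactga
Rps27l: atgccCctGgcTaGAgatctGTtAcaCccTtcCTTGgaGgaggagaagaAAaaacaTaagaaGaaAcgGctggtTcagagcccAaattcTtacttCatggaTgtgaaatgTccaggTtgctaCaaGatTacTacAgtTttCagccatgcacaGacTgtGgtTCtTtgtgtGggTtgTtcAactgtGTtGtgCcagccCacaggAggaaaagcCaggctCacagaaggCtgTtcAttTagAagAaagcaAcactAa
Of the stretches of 31 bases in Rps27rt transcripts (GENCODE M21), 91.57% also occur in Rps27, so reads are hard to divide between these genes and their separate values are uncertain. Ribosomal protein genes share such stretches widely with processed pseudogenes. Among the 77 core genes the median share of 31-base stretches found in another gene was 44.52%, it reached 94.05% in Rpl36, and 27 genes had more than 50% shared. Rpl38 had 31.61%, Rpl31 22.45% and Rpl22 9.78%.

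Abundance is in TPM, a measure that corrects for transcript length and for the library total. The TPM scale keeps no read depth, so no counting error can be given. Library totals ran from 956489 to 963145 TPM. Microglial markers were present as labelled: 14 of 14 were listed, with a summed level of 12070 to 18790 TPM in the 15 libraries. Of 10 neuronal markers only 3 were listed, with a sum at or under 5.06 TPM. Astrocyte markers (8 of 10 listed) summed to 79.0 to 283.5 TPM and oligodendrocyte markers (7 of 10) to 57.3 to 978 TPM. Endothelial markers (6 of 11) summed to 175.5 to 319.9 TPM. Libraries AF-high 2 and AF-high 3 stood apart by their mitochondrially encoded genes (5.38% and 7.66% of TPM, against 2.37% to 2.70% for AF-high 1, 4 and 5), and young 1 and young 2 by choroid plexus genes (8860 and 5846 TPM summed, against 35.6 to 376 TPM in the other 13 libraries). In RNA from a sorted population, fewer cells of a type and less RNA per cell cannot be told apart.

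The core genes together took 3.01% to 5.59% of TPM. Their share in the AF-high libraries 1 to 5 was 5.59%, 3.30%, 3.01%, 4.95% and 4.04%. In the AF-low libraries 1 to 3 it was 3.51%, 4.38% and 4.36%. The extremes of the whole series, AF-high 1 and AF-high 3, thus lay in the same group.

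In the young libraries the share was 3.19%, 3.75% and 3.46%. In the PLX5622 libraries 1 to 4 it was 3.07%, 3.76%, 3.09% and 3.79%. Every library of these groups lay below AF-high 1, 4 and 5 and AF-low 2 and 3. AF-high 2 and AF-low 1 lay within the range of these 2 groups, and AF-high 3, at 3.01%, lay below it. Group means were 4.18% ± 1.09 (SD, n = 5) in AF-high, 4.08% ± 0.494 (SD, n = 3) in AF-low, 3.47% ± 0.281 (SD, n = 3) in young and 3.43% ± 0.399 (SD, n = 4) in PLX5622. The differences between group means were smaller than the spread within AF-high.

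**Figure D1:**
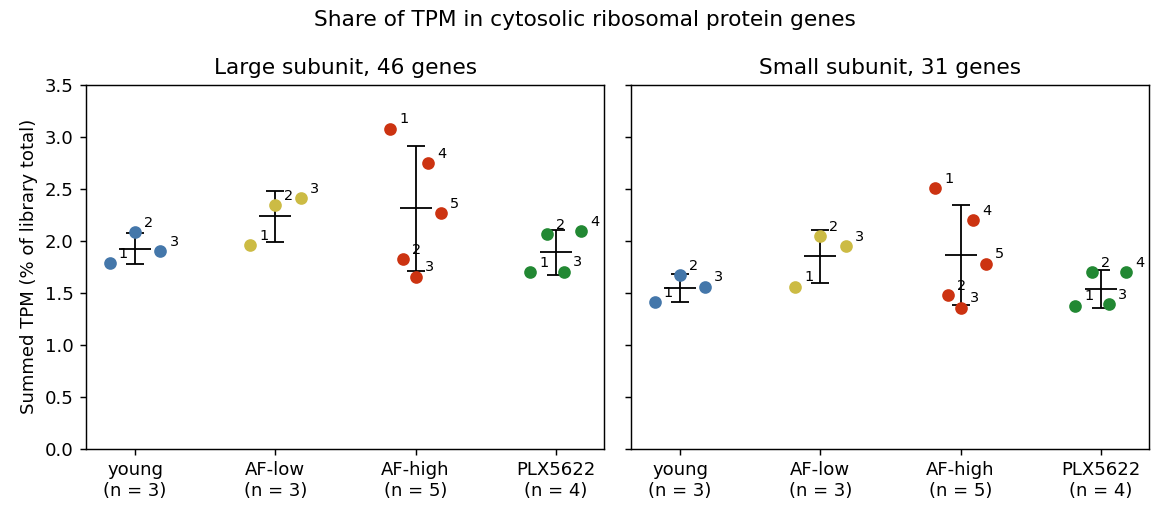
Share of TPM (percent of each library's total) in the 46 large-subunit genes (left) and 31 small-subunit genes (right), with 1 numbered point per library by group; black bars give the group mean and SD. AF-high libraries 1 and 4 are the highest and AF-high 3 is the lowest in both panels, and the PLX5622 libraries fall into the range of the young ones or just outside it.

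Both subunits moved together. The large-subunit genes took 2.31% ± 0.601 of TPM in AF-high, 2.24% ± 0.243 in AF-low, 1.92% ± 0.15 in the young group and 1.89% ± 0.218 in PLX5622 (mean and SD). The small-subunit genes took 1.86% ± 0.485, 1.85% ± 0.257, 1.55% ± 0.132 and 1.54% ± 0.182 in the same order. The ratio of the large to the small sum stayed between 1.15 (AF-low 2) and 1.27 (AF-high 5), with group means of 1.24 ± 0.0206, 1.21 ± 0.0588, 1.24 ± 0.0245 and 1.23 ± 0.00896. The ratio thus moved little where the sums moved most, within AF-high.

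Gene by gene, the pattern followed the library more than the group. In AF-high 1, 76 of the 77 core genes were above their own mean over the 15 libraries, and in AF-high 4 it was 75. In PLX5622 1 and PLX5622 3 only 2 and 3 genes were above it, and in AF-high 3 it was 9. AF-high 1 held the highest value of 60 core genes and AF-high 4 that of a further 12. The lowest values were spread: 25 genes were lowest in AF-high 3, 16 in PLX5622 1, 13 in PLX5622 3, 12 in AF-high 2 and 7 in young 1. Levels are TPM relative to all other genes in the library, so a library with more of another RNA class has less of these.

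**Figure D2:**
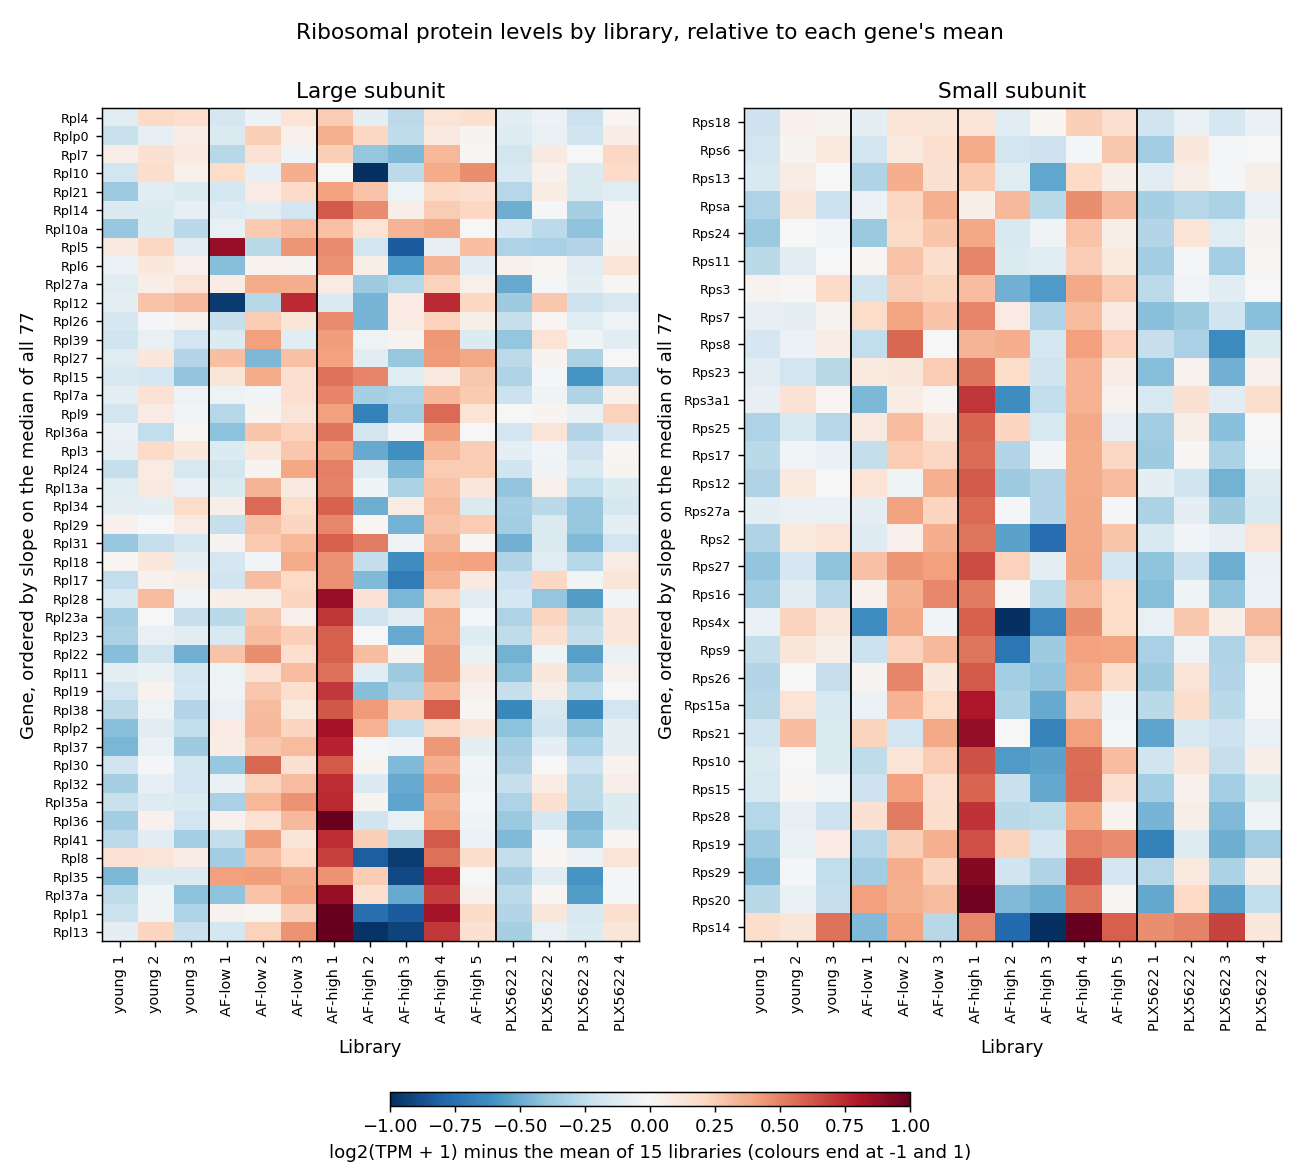
Difference of log2(TPM + 1) from each gene's mean over the 15 libraries, for 45 large-subunit (left) and 30 small-subunit genes (right); columns are libraries by group, and genes run from the smallest to the largest slope on the median of all 77. Whole columns share a colour, red in AF-high 1 and 4 and blue in AF-high 3 and PLX5622 1 and 3, and the steepest genes at the bottom include Rpl13 and Rps14.

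The genes did not all follow this shared movement to the same degree. The standard deviation of log2(TPM + 1) over 15 libraries had a median of 0.318 among core genes, and 0.184 once each library was centred on the core median. Rps18, a small-subunit protein at the head of the subunit, moved least with the core median (slope 0.451, 1.36-fold between its lowest and highest library). Rpl4 (slope 0.481, 1.43-fold) and the stalk base protein gene Rplp0 (slope 0.553, 1.53-fold) were also flat. Rps20 (slope 1.57), the stalk protein gene Rplp1 (1.64) and Rpl13 (1.79) moved more than the median.

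Rps14, which encodes a small-subunit protein of the platform, had the steepest slope (2.06) and the largest range, 54.8-fold. Its level was 117, 48.3, 4.21, 231 and 127 TPM in AF-high 1 to 5. It was 61.1, 109.95 and 68.8 TPM in AF-low, 94.4, 91.0 and 121.8 TPM in young, and 115.5, 118.3, 133.7 and 89.9 TPM in PLX5622. The AF-high libraries held both its lowest and its highest value, and its change passed the test in no comparison (limma, adjusted p 0.624 to 0.998).

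Spread within a group was widest in AF-high. The coefficient of variation of a core gene had a median of 28.2% in AF-high, 16.5% in AF-low, 9.35% in young and 12.8% in PLX5622. For 1528 other genes with a mean of at least 101 TPM it was 19.6%, 16.3%, 10.1% and 9.70%. AF-high exceeded PLX5622 in 73 of the 77 core genes. In 67 of 77, AF-high 1 and 4 were both above AF-high 2 and 3. The plot of ribosomal against mitochondrial share shows that AF-high 2 and 3 are the libraries with the high mitochondrial share, and the part of that in the ribosomal protein levels was not tested.

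**Figure D3:**
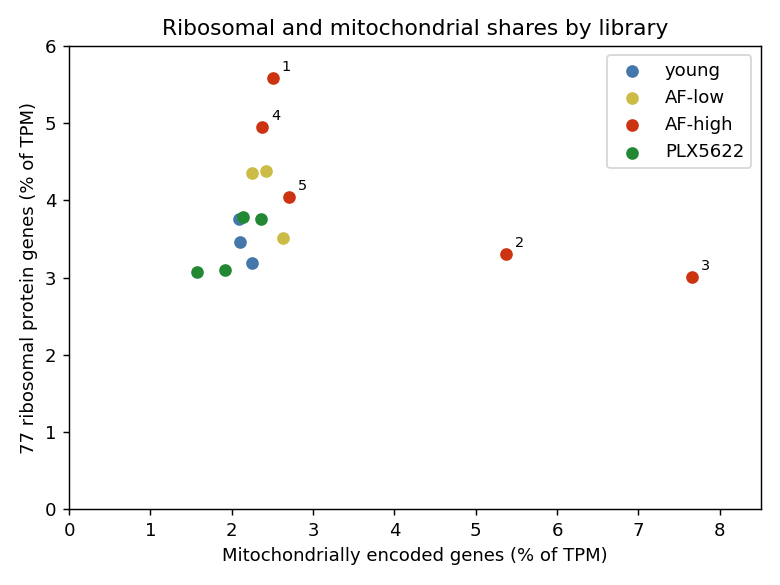
Share of TPM in the 77 core genes (y axis, percent) against that in mitochondrially encoded genes (x axis, percent), 1 point per library, coloured by group and numbered for AF-high. AF-high 2 and 3 lie alone above 5% mitochondrial share and have a core share of 3.30% and 3.01%, while AF-high 1, 4 and 5 lie between 4.04% and 5.59%.

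AF-high was compared with AF-low to ask how the sorted fractions of the old brain differ. No member passed the test (limma on log2(TPM + 1), Benjamini-Hochberg over 13175 genes, threshold 0.05; smallest adjusted p 0.477), and none of the 13175 genes did (0.0%). At an unadjusted p under 0.05 stood 1 member, against 8.21% of all genes. The members were split, 42 above 0 and 43 below (43.9% of all genes were above 0), with a median log2 difference of -0.01 against -0.04 for all genes. The sign of that median turned with the libraries: it was 0.22 without AF-high 2 and 3 and -0.26 without AF-high 1 and 4.

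Rpl14, a large-subunit protein gene, was the single member whose groups did not overlap (1.05% of all genes were higher without overlap). Its level was 342, 310, 234, 266 and 257 TPM in AF-high and 204, 207 and 196 TPM in AF-low. All 5 AF-high libraries were above all 3 AF-low ones, and the difference of 0.46 ± 0.14 (log2, SE) had an adjusted p of 0.477 (limma). Rpl38 and Rpl12 followed with log2 differences of 0.27 and 0.25, and at the other end stood Rps14, Rps27l and Rpl5, with -0.34, -0.35 and -0.41. Rpl5 is part of the 5S particle that binds MDM2 when ribosome assembly is disturbed, and its 3 AF-low values were 123, 55.3 and 91.1 TPM, overlapping the AF-high ones of 37.0 to 93.0 TPM.

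The comparisons with young microglia ask what differs with age in each fraction. Between AF-high and young, 69 of 85 members were above 0 (39.0% of all genes were), with a median of 0.20 against -0.08 for all genes. The median was 0.23 over the large and 0.20 over the small subunit. No member passed the test (background 0.0%; smallest adjusted p 0.197, limma), 16 had an unadjusted p under 0.05, all higher in AF-high (18.8% of members, 3.57% of all genes), and 8 were higher without overlap (9.41% of members, 2.63% of all genes). The median was -0.02 without AF-high 1 and 4 and 0.43 without AF-high 2 and 3.

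Rpl22, a large-subunit protein gene whose product can be replaced by its paralogue RPL22L1, led the core genes. Its level was 590, 483, 397, 528 and 372 TPM in AF-high and 290, 338 and 279 TPM in young. Every AF-high library was above every young one, by 0.63 ± 0.17 on the log2 scale (SE; adjusted p 0.197, limma). Rpl38 and Rps27rt had log2 differences of 0.59 and 0.77. The Rps27rt levels were 1278, 530, 422, 1011 and 502 TPM in AF-high and 320, 448 and 444 TPM in young, so that AF-high 3 overlapped the young range. Lowest stood Rps14 (-0.73), Rps4l (-0.25) and Rps4x (-0.21), none past the test.

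Between AF-low and young, 75 of 85 members were above 0, against 45.7% of all genes, with a median of 0.22 against -0.04. No member passed the test (0.0455% of all genes did; smallest adjusted p 0.20, limma). At an unadjusted p under 0.05 were 9 members, all higher in AF-low (10.6%, against 4.93% of all genes). Of the members, 24 were higher in every AF-low than in every young library (28.2%, against 8.25% of all genes). Without young 1 and 2, which leaves 1 young library, assumed to vary like the other groups, the median was 0.20 here and 0.19 for AF-high against young. No member and no other gene was called in either (limma; 3.35% and 2.82% of all genes had an unadjusted p under 0.05), so the absence of calls says nothing about the members.

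Rps27 had the largest AF-low difference. The AF-low levels were 2406, 2657 and 2608 TPM and the young ones 1489, 1744 and 1481 TPM. The groups were well apart, by 0.71 ± 0.20 on the log2 scale (SE), with an adjusted p of 0.20 (limma). Rpl22 followed with 474, 538 and 438 TPM in AF-low, a log2 difference of 0.67. Rpl35, a protein at the exit of the nascent chain, came next with 60.3, 60.7 and 58.6 TPM in AF-low against 32.6, 40.9 and 40.8 TPM in young (0.64 ± 0.31, adjusted p 0.430, limma). The lowest log2 differences were those of Rps14 (-0.39), Rpl12 (-0.33) and Rps19bp1 (-0.29).

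**Figure D4:**
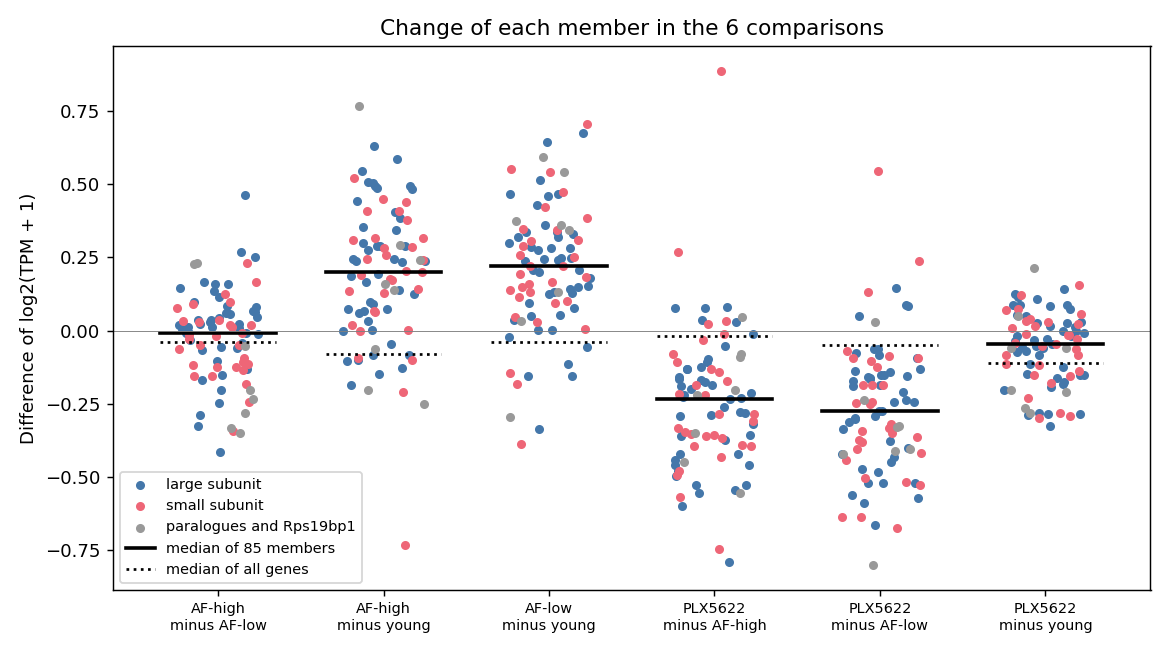
Difference of log2(TPM + 1) between groups for each of the 85 members in the 6 comparisons (1 point per gene, coloured by class); solid bars mark the median of the members and dotted bars the median of all 13175 genes. The members' median is 0.20 and 0.22 in the comparisons of AF-high and AF-low with young, -0.24 and -0.27 in those of PLX5622 with AF-high and AF-low, and close to 0 in the other 2.

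The comparisons of PLX5622 with both old fractions ask what differs after treatment. They share the PLX5622 libraries, and they share the AF-high and AF-low libraries with the comparisons above. The comparisons of both fractions with young share the young libraries. Values of all these comparisons are therefore not independent of each other. Against AF-high, 75 of 85 members were lower in PLX5622 (52.5% of all genes were), with a median of -0.24 against -0.02. It was -0.23 over the large and -0.29 over the small subunit. Rpl38 was the 1 member called lower (0.471% of all genes were called lower, 0.63% in either direction), 22 had an unadjusted p under 0.05, all lower (25.9%, against 9.40% of all genes), and 4 (Rpl10a, Rpl14, Rpl31 and Rpl38) were lower without overlap (4.71%, against 4.18%).

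RPL38 is a small protein of the large subunit known for the skeletal patterning defects of mice that lack a copy of its gene. Rpl38, on chromosome 11 from 114668524 to 114672331 on the plus strand (GRCm38, GENCODE M21), stood at 305, 266, 235, 301 and 201 TPM in AF-high and at 127, 178, 127 and 174 TPM in PLX5622. All PLX5622 libraries lay below all AF-high ones. The young libraries had 165, 191 and 161 TPM and AF-low 188, 247 and 212 TPM. The fall was 0.79 ± 0.15 on the log2 scale (log2 change -0.79, SE; adjusted p 0.0363, limma). It kept its direction in all 29 alternatives, from -0.88 to -0.53, and passed the test in 13 of them, with adjusted p from 0.0286 to 0.279. Leaving out AF-high 2 (adjusted p 0.0571), young 1, 2 or 3 (0.0538, 0.0619 and 0.0611) or PLX5622 1, 2, 3 or 4 (0.143, 0.0697, 0.168 and 0.0539) ended the call.

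Rpl31, a protein at the exit of the peptide tunnel, had the next smallest adjusted p, with 431, 406, 279, 361 and 287 TPM in AF-high against 204, 258, 209 and 249 TPM in PLX5622. Its groups did not overlap, and the log2 difference of -0.60 ± 0.14 had an adjusted p of 0.0657 (limma). Rps19, next to Rpl38 by size and mutated in Diamond-Blackfan anaemia, had 263, 196, 149.5, 239 and 233 TPM against 105, 153, 119 and 132 TPM. Here AF-high 3 was below PLX5622 2, and the difference was -0.75 ± 0.18 with an adjusted p of 0.0684 (limma). Rps14 (0.89), Rps4x (0.27) and Rpl7 (0.08) had the highest log2 differences, and each of the 3 turned below 0 without AF-high 2 and 3.

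The size of the whole list's difference rested on which AF-high libraries entered. Without AF-high 2 and 3 the median was -0.51, all 85 members were lower in PLX5622 and 5 were called (5.88%, against 1.04% of all genes), among them Rpl38, Rps12, Rps19 and Rps7. Without AF-high 1 and 4 it was -0.02, with 48 members below 0 and none called (2.10% of all genes were). The libraries left out were chosen after their levels were seen.

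**Figure D5:**
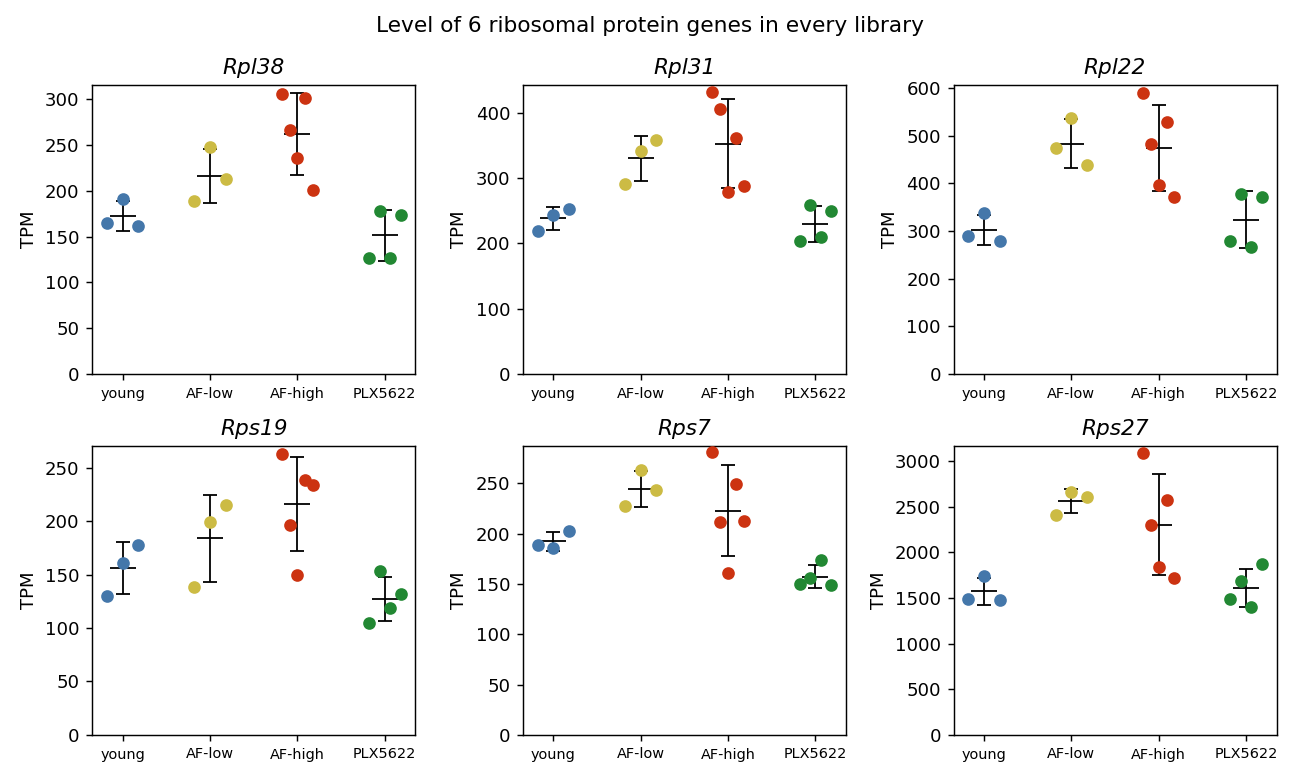
Level in TPM of 6 members in every library, by group (1 point per library; black bars give mean and SD, and each axis starts at 0). In Rpl38 and Rpl31 the PLX5622 points lie below all AF-high points, and in Rpl22 and Rps27 both old untreated groups have higher means than young and PLX5622, but AF-high 3 and 5 in Rps27 (1839 and 1723 TPM) and AF-high 5 in Rpl22 (372 TPM) lie within the range of PLX5622.

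Against AF-low, 77 of 85 members were lower in PLX5622 (55.6% of all genes were), with a median of -0.27 against -0.05, -0.24 over the large and -0.32 over the small subunit. No member passed the test (0.144% of all genes did; smallest adjusted p 0.116, limma). At an unadjusted p under 0.05 were 22 members, all lower (25.9%, against 10.2% of all genes), and 26 were lower without overlap (30.6%, against 10.9%).

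Rps27l had the largest difference, from 66.7, 88.5 and 70.0 TPM in AF-low to 39.9, 46.1, 36.0 and 48.4 TPM in PLX5622 (-0.80 ± 0.27 on the log2 scale, SE; adjusted p 0.186, limma). Its gene is a p53 target, and no AF-low library overlapped PLX5622. Rps27 stood at 1484, 1685, 1400.5 and 1869 TPM in PLX5622, all under the AF-low values above (-0.68 ± 0.18, adjusted p 0.137, limma). Rpl35 stood at 35.6, 41.8, 29.7 and 44.3 TPM in PLX5622 (-0.66 ± 0.29, adjusted p 0.312, limma). Rps7, a small-subunit protein, had the smallest adjusted p, 0.116 (limma). It had 227, 263 and 244 TPM in AF-low and 149.5, 156, 174 and 149 TPM in PLX5622, without overlap. The highest log2 differences were those of Rps14 (0.54), Rps4x (0.24) and Rpl6 (0.15).

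Between PLX5622 and young, which asks how near treated old cells stood to young ones, the members had a median of -0.05 against -0.11 for all genes, with 29 above 0 and 56 below. Of all genes, 69.3% were below 0. No member passed the test (0.0911% of all genes did; smallest adjusted p 0.972, limma), and 0 had an unadjusted p under 0.05 (5.23% of all genes). Without overlap 6 were lower (7.06%, against 12.7% of all genes). The sign of the median depends on scaling: it was 0.01 to 0.07 under 3 other scalings. The lowest were Rpl28 (-0.32), Rps19 (-0.30) and Rps7 (-0.29), and the highest Rps27rt (0.21), Rps14 (0.16) and Rplp1 (0.14). In 62 of 77 core genes the young mean fell within the range of the PLX5622 libraries. A p that misses the threshold does not show that levels were equal.

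In group means, both old untreated fractions were above both young and PLX5622 in 61 of the 77 core genes (79.2%, against 25.2% of all genes tested), 34 large and 27 small. The 61 are not independent, since the core genes moved together by library. Markers of border-associated macrophages, the macrophages of the brain's borders, had higher sums in both fractions too (10 of 10 were listed). The summed level was 471 to 607 TPM in AF-low, 329 to 453 in AF-high, 243 to 309.9 in the young group and 183 to 233 in PLX5622. Stab1 and Dab2 had the highest means of the 10. The mean of F13a1 was not higher in AF-high (6.84 TPM) than in young (6.88 TPM), while those of the other markers were. The part of these markers in the ribosomal protein levels was not tested. Numbered gene models, picked by name (Gm or Rik) and not by function, took 20.2% ± 3.05 of TPM in PLX5622 and 11.6% ± 1.36 in AF-high. They took 10.85% ± 0.934 in AF-low and 14.5% ± 5.57 in young, where young 1, at 20.9%, lay within the PLX5622 range. TPM was then rescaled without the numbered models, mitochondrial genes and members. The members' median difference of PLX5622 from AF-high became -0.13, against 0.08 for all genes. That from AF-low was -0.12, against 0.09 for all genes. Before rescaling these medians were -0.24 against -0.02 and -0.27 against -0.05, so rescaling moved members and all genes alike.

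Once each library was centred on the median of the core genes, an alternative added after the shared movement was seen, no member passed the test in any of the 6 comparisons (0 of 85 each; limma). In this fit 0.0%, 0.0911%, 0.0%, 0.273%, 0.0% and 0.038% of all genes did, in the order given next, so a count of 0 is near the background. At an unadjusted p under 0.05 were 0, 2, 2, 3, 2 and 0 members, for AF-high against AF-low and young, AF-low against young, and PLX5622 against AF-high, AF-low and young. The shares of all genes were 4.47%, 13.7%, 10.8%, 12.9%, 8.49% and 2.44%. Centring fixes the members' median near 0, since most members are core genes. The 3 members with such a p in PLX5622 against AF-high were Rpl38 (-0.53, adjusted p 0.279), Rps19 (-0.49, adjusted p 0.277) and Rps4x (0.52, adjusted p 0.338; limma).

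Rps27 had the highest mean level, 1400.5 to 3082 TPM, followed by Rps25 and Rpl10 (means of 1783 and 1309 TPM). The lowest were Rps19bp1 (16.1 TPM), Rps4l (17.0 TPM) and Rpl12 (24.7 TPM). Rpl12 encodes a protein of the stalk base, and 49.8% of its 31-base stretches occur in Gm10275, so its low level is uncertain. Of the stalk genes, Rplp0 had 166 to 254 TPM, Rplp1 613 to 2209 TPM and Rplp2 680 to 1615 TPM. The listed levels of these partners of 1 complex thus differed several-fold per length. Of the 31-base stretches of Rplp0, Rplp1 and Rplp2, 44.61%, 75.05% and 34.87% occur in other genes, so this difference is uncertain too. Rpsa, of the small subunit, had 343 ± 64.9 TPM in AF-high, 338 ± 48.0 in AF-low, 273 ± 43.0 in young and 251 ± 21.6 in PLX5622 (PLX5622 against AF-high -0.43, adjusted p 0.188, limma). RPS6, the substrate of the S6 kinases, had a flat message: 364 ± 67.8, 356 ± 44.4, 344 ± 33.6 and 335 ± 43.4 TPM in the same order.

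Rpl11, the partner of RPL5 in the 5S particle, had 702 ± 181 TPM in AF-high, 691 ± 85.6 in AF-low, 579.6 ± 25 in young and 566 ± 108 in PLX5622. Rps3, which sits at the entry of the message channel, had 167 ± 49.9, 175 ± 28.9, 173 ± 11.95 and 153 ± 12.5 TPM. Rps27a, which encodes ubiquitin fused to RPS27A, had 441 ± 106, 451 ± 75.3, 375 ± 5.10 and 338 ± 29.1 TPM. None of the 3 passed the test in any comparison.

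Paralogues were compared with their parents by the ratio of TPM within each library, as a description. Rpl22l1 stood at 0.619, 0.492, 0.956, 0.608 and 0.674 of Rpl22 in AF-high and at 0.731, 0.728 and 0.782 in AF-low. In young it stood at 0.844, 0.860 and 1.07, and in PLX5622 at 0.908, 0.756, 1.09 and 0.864. Apart from AF-high 3, whose ratio was 0.956, the untreated old libraries had lower ratios than the young ones. Of the 31-base stretches of Rpl22l1, 60.0% occur in other genes, against 9.78% for Rpl22, so the level of Rpl22l1 and these ratios are uncertain. Rpl22l1 itself had 311 ± 64.6 TPM in AF-high and 278 ± 29.2 in the young group, while Rpl22 had 474 ± 90.5 and 302 ± 31.3.

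Rps27l stood at 0.0194 to 0.0400 of Rps27 and Rps4l at 0.00832 to 0.0249 of Rps4x. Rps27rt was listed at 0.209 to 0.415 of Rps27, and since the coding sequences are identical this division rests on how shared reads were assigned. Rpl36al ran from 1.05 to 1.69 of Rpl36a, Rpl37rt from 0.694 to 1.53 of Rpl37, and Rpl7l1 from 0.0919 to 0.197 of Rpl7. Between any pair of groups the ratios of these 6 paralogues overlapped, except that every PLX5622 library lay below every young one for Rpl7l1, narrowly (up to 0.1147 against 0.1151 and above).

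Other parts of the translation machinery were set beside the members, from lists chosen by function. Of 11 elongation factors none passed the test in any comparison (limma), and 8 were below 0 in PLX5622 against AF-high (median -0.14; 52.5% of all genes were) and all 11 against young (median -0.25; 69.3% of all genes were). Lower at an unadjusted p under 0.05 were 4 of the 11 against AF-high (36.4%, against 9.40% of all genes) and 2 against young (18.2%, against 3.82%). Eef1a1, which delivers aminoacyl-tRNA, had 2232 ± 490 TPM in AF-high, 2213 ± 243 in AF-low, 2582 ± 308 in young and 2376 ± 176 in PLX5622. Its mean was highest in the young group, as was that of 4 of the 77 core genes, while 46 core genes had their highest mean in AF-high, 25 in AF-low and 2 in PLX5622. Eef2, which moves the ribosome along, had 219 ± 35.5, 201 ± 9.95, 218 ± 31.6 and 165 ± 16.6 TPM.

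Of 38 initiation factors, 37 were listed and none passed the test (limma). Eif3g, a subunit of initiation factor 3, came closest, with 80.5 ± 10.01 TPM in PLX5622 against 132 ± 18.4 in AF-high (-0.71 ± 0.16, adjusted p 0.0549, limma). In PLX5622 against AF-high, 25 of the 37 were below 0, with a median of -0.14, and 6 were lower at an unadjusted p under 0.05 (16.2%, against 9.40% of all genes). Of 84 biogenesis factors 83 were listed and none passed the test (limma). In PLX5622 against AF-high, 50 of them were below 0 (52.5% of all genes were), with a median of -0.06 against -0.02. Against AF-low, 67 were below 0 (55.6% of all genes were), with a median of -0.20 against -0.05. Lower at an unadjusted p under 0.05 were 8 and 10 of them (9.64% and 12%, against 9.40% and 10.2% of all genes), so these shares were near the background. Lower without overlap were 3 and 17 (3.61% and 20.5%, against 4.18% and 10.9% of all genes), so here the share against AF-low was above it. Npm1, the nucleolar chaperone nucleophosmin, stood at 315, 478, 579, 384 and 482 TPM in AF-high, 351, 307 and 391 TPM in AF-low, 264, 312.5 and 311 TPM in young and 283.5, 322, 260.2 and 283 TPM in PLX5622. Its lowest AF-high value was in AF-high 1 and its highest in AF-high 3, the reverse of the summed share of the core genes.

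Of 35 genes of mTOR complex 1 and the control of TOP messages, 33 were listed. Of these, 1 passed the test, in PLX5622 against AF-high (0.63% of all genes did). Myc, a transcription factor that drives ribosomal protein genes, was called lower in PLX5622 than in AF-high: 91.9, 94.7, 79.4 and 84.9 TPM against 111, 141, 136, 149 and 118 TPM. The groups did not overlap (4.18% of all genes were lower without overlap), and the log2 difference was -0.57 ± 0.12 (SE; adjusted p 0.0495, limma). The call was at its margin and held in 7 of 29 alternatives (log2 -0.62 to -0.31, adjusted p 0.0296 to 0.542). Leaving out any 1 library other than AF-high 1, AF-low 1 or AF-low 2 ended it. Myc was also lower in PLX5622 than in AF-low (-0.66, adjusted p 0.0853) and young (-0.39, adjusted p 0.702; limma), without a call. Larp1 had 47.9 ± 4.29 TPM in AF-high, 47.5 ± 7.41 in AF-low, 41.0 ± 2.70 in young and 37.1 ± 2.70 in PLX5622 (PLX5622 against AF-high adjusted p 0.175, limma). Of 16 rescue and quality control factors 15 were listed, and of 9 ribosome-associated proteins 7; none of them passed the test in any comparison (limma), and 2 and 0 had an unadjusted p under 0.05 in PLX5622 against AF-high (15.3% of all genes did).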

How the data were processed

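The members, the gene lists and the tests were chosen with earlier results of these data known. Per the labels, RNA from sorted microglia was amplified with the Ovation system and built into low-input libraries, 15 in all. The authors deposited a filtered table of TPM. The submitters' processing notes name FastQC 0.11.8, Salmon 1.0.0, DESeq2 and GRCm38 (mm10). The sources used here do not give the transcript index, the filter or the commands. The table held 0 values equal to 0 and 0 identical pairs of libraries. Library totals ran from 956489 to 963145 TPM, and depth is unknown.

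Values were taken as log2(TPM + 1), which understates changes of low genes, for the 13175 genes that reached 1 TPM in 3 or more libraries. All libraries entered 1 limma 3.58.1 fit in R 4.3.3 (eBayes with trend, tested on simulated data), with two-sided tests of 6 comparisons and a threshold of 0.05 on the Benjamini-Hochberg adjusted p. Named were members called, the 3 highest and 3 lowest changes per comparison and mean levels, stalk proteins, paralogue pairs and textbook cases; others were named after their values were seen. Shares of 31-base stretches were counted in GENCODE M21 transcripts for 83 of 85 members (Rpl37rt and Rps4l had no match). Figures used Python 3.11.15 with matplotlib 3.10.9. Values of some single genes are not reported here.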

Additional observations from a re-analysis of the deposited data

Results flagged for a closer look

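Of 176 series of values tested (each member, both subunit sums and their ratio, in AF-high and in PLX5622), 1 held a library far from the others, where chance marks about 1 in 20. Rpl5 had 68.1 TPM in PLX5622 4, against 53.1 to 54.4 TPM in the other 3 PLX5622 libraries. The gap to the nearest was 0.913 of the group's range, past Dixon's critical value for 4 samples.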

How the results depend on the processing

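Of 34 values that answer a comparison and moved, most concern PLX5622 against AF-high, where 1 member was called. It was 0 with quantile normalization (0.539% of all genes were called), median centring on other genes (0.448%), TPM rescaled (0.425%) and centring on the core genes (0.273%). It was also 0 with only the compared groups fitted (0.0542%), without AF-high 1 and 4 (2.10%) and with the replicate block (0.0%). Where almost no gene was called, a count of 0 says nothing about the members. It was 5 with array weights (3.35% of all genes were called), 5 without AF-high 2 and 3 (1.04%) and 13 without AF-high 2, AF-high 3 and AF-low 1 (2.26%). When 1 library was left out it was 0 to 5, while 0.0076% to 1.56% of all genes were called. The count of 5 came without AF-high 3 (0.905%). In the fit with all libraries, 0.63% of all genes were called. Against AF-low, where no member was called, 1 (Rps7) was called with array weights, without AF-high 2 and 3, and without those and AF-low 1 (0.676%, 1.10% and 0.344% of all genes). The members' median moved to -0.51 without AF-high 2 and 3, with or without AF-low 1, against AF-high, and, centred on the core genes, which fixes it near 0 by construction, to 0.01 for AF-low against young and -0.05 for PLX5622 against AF-low. Shares of TPM rescaled to other genes rose by construction, to 2.71% for the large subunit in AF-low, 2.41% in young and 2.54% in PLX5622, and to 2.24%, 1.94% and 2.07% for the small. Rescaling moved the median of all genes by over 0.1 in PLX5622 against AF-low, from -0.05 to 0.09. Deviations of libraries with the same replicate number were weakly correlated (-0.0812 to 0.141). This cannot decide whether libraries came from the same animals, since the animals behind a library are not given. With the replicate block the Rpl38 change was -0.88 (adjusted p 0.0751, limma).

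The sign turned for members far from the test's threshold. Rps14 in AF-high against AF-low was 0.23 with array weights, 0.95 without AF-high 2 and 3, 0.79 without AF-low 1 as well and 0.55 without AF-high 3; against young 0.57, 0.57 and 0.16. In PLX5622 against AF-high it was -0.41, -0.41 and 0, and against young -0.15 with the replicate block and -0.10 without young 1 and 2. Rps4x turned to 0.33, 0.33 and, without AF-high 2, 0.06 in AF-high against young, to -0.27 in PLX5622 against AF-high, and to -0.03 against AF-low without AF-low 1. Rpl7 in PLX5622 against AF-high turned to -0.01, -0.17 and -0.02. Rpl12 turned to -0.15 in AF-high against AF-low and 0.06 in AF-low against young without AF-low 1. Rpl5 in AF-high against AF-low was 0.14, Rpl6 in PLX5622 against AF-low 0, Rplp1 in PLX5622 against young -0.02, Rps19bp1 in AF-low against young 0.26 and Rps4l in AF-high against young 0.16. Leaving out 1 library at a time gave, for Rps14, -0.82 to 0.55 between the old fractions, -1.21 to 0.16 between AF-high and young and 0 to 1.36 between PLX5622 and AF-high. It gave -0.39 to 0.06 for Rps4x in AF-high against young and -0.03 to 0.47 in PLX5622 against AF-low, -0.15 to 0.70 for Rpl12 in AF-high against AF-low and -0.79 to 0.06 in AF-low against young, -0.02 to 0.17 for Rpl7, -0.66 to 0.26 for Rps19bp1 and 0 to 0.22 for Rpl6. The cause of these turns was not tested. TPM keeps no depth, so low members such as Rpl12, Rps4l and Rps19bp1 cannot be given a counting error.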
